A study of Mus musculus with 19 samples.

Results

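RNA levels of the G1 cyclins, their kinase partners and the inhibitors of those kinases were compared in mouse embryonic stem cells and in epiblast-like cells of 3 genotypes. The set was given as a list of 10 genes (Ccnd1, Ccnd2, Ccnd3, Ccne1, Ccne2, Cdk4, Cdk6, Cdkn1a, Cdkn1b and Cdkn2a) out of 54119 genes obtained by summing the deposited transcripts. All 10 passed the filter on low values and were among the 14972 genes tested. D-type cyclins bind CDK4 and CDK6 and E-type cyclins bind CDK2, and the active kinases phosphorylate the retinoblastoma protein RB, which releases E2F factors and lets the cell enter S phase. The CIP/KIP inhibitors p21 (Cdkn1a) and p27 (Cdkn1b) restrain cyclin-bound CDKs, p16INK4A from Cdkn2a blocks CDK4 and CDK6, and p19ARF from the same gene stabilises p53. Mouse embryonic stem cells are known for a short G1 phase, though its length varies with the culture medium and was not measured here.

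Total RNA depleted of ribosomal RNA was sequenced in 19 libraries of 6 groups. Stem cells (mESC) were held in N2B27 medium with LIF and with inhibitors of the kinases GSK3 and MEK1/2, a medium that keeps naive pluripotency. LIF was then withdrawn, and FGF5 together with Activin A over 5 days gave the epiblast-like cells (EpiLC). The groups were XX wild-type mESC (n = 3) and EpiLC (n = 3) of the LF2 line, XY wild-type mESC (n = 3) and EpiLC (n = 3) of the E14 line, and Tet3-/- mESC (n = 4, mutants #1 to #4) and EpiLC (n = 3, mutants #1, #3 and #4), which were XX cells of the LF2 line. TET3 is an enzyme that oxidises methylated cytosine in DNA, and the design asks whether it is needed for the change from mESC to EpiLC. Sex and cell line cannot be told apart, because each sex was represented by 1 line. The labels do not say whether the mutant numbers are separate clones or whether replicates were separate cultures, so p-values measure the spread between these samples, which may be technical.

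Levels are given as scaled TPM, that is TPM (transcript abundance normalised for length and library total) divided by a size factor for each library, because the non-coding RNA Rn7s1 took from 23.5% to 43.7% of TPM and a different share in each library. The depth of the libraries is unknown, since TPM keeps no depth. Summed naive markers were at 453 to 631 scaled TPM in the mESC libraries and fell to 87.8 to 92.1 in XX, 53.1 to 61.9 in XY and 36.1 to 50.6 in Tet3-/- EpiLC libraries, and 3 neural markers summed to less than 1 in every library. The 6 formative markers, which mark the EpiLC state, summed to 27.6 to 34.1 in XX, 12.5 to 22.8 in XY and 24.6 to 31.1 in Tet3-/- mESC. In EpiLC they summed to 49.2 to 51.3 in XX, 231 to 236 in XY and 67.3 to 124 in Tet3-/- cells. From XX mESC to XX EpiLC 5 of them were called higher and 1, Otx2, lower (limma adjusted p under 0.05), where 24.5% and 25.9% of all tested genes were. The cultures thus differed in both kinds of marker at the same day, Tet3-/- from XX EpiLC as well as E14 from LF2. Tet3 itself was at 0.656 to 1.24 in XX mESC and 0.522 to 0.847 in Tet3-/- mESC, and at 1.41 to 1.92 in XX EpiLC and 1.06 to 1.32 in Tet3-/- EpiLC. Which part of Tet3 was deleted is not stated, so this gene sum does not check the labels. There were 2 libraries that stood apart from their groups in several of the 10 genes. XX mESC replicate 2 had 41.5% of TPM in nuclear protein-coding genes against 21.4% and 27.5% in the other XX mESC libraries, and Tet3-/- EpiLC mutant #3 had a summed level of 4 mesendoderm markers of 93.7 against 3.92 and 4.87 in the others. Where a call on the 10 genes changed without them, the value without them stands beside the result. These libraries were chosen after seeing the data, so the refits without them describe dependence on them and are no independent support.

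Cdkn2a makes both of its proteins from alternative first exons joined to the same second exon, and the sequences below show where its transcripts part from each other. Cdkn2a lies on the minus strand at chr4:89274471-89294653 (GRCm38). The first exon of transcript Cdkn2a-202, which encodes p19ARF, spans chr4:89294334-89294653, and that of Cdkn2a-201, which encodes p16INK4A, spans chr4:89281986-89282192. Exon 2 of both transcripts spans chr4:89276645-89276985. The joins are printed with the end of the first exon in capitals and the start of exon 2 in lower case.
Cdkn2a-202 (p19ARF) join: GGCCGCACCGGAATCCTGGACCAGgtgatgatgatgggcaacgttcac
Cdkn2a-201 (p16INK4A) join: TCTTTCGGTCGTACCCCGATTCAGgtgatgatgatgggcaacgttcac
The exon 2 part is the same in both, but the coding sequence reaches it 1 base past a whole codon in Cdkn2a-202 (190 coding bases in the first exon) and at a whole codon in Cdkn2a-201 (126 bases). The shared exon is therefore read in different frames, and the proteins have 169 and 168 codons.

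The stretches upstream of these starts, and upstream of Cdkn1a-201, are shown next because Cdkn2a and Cdkn1a were the inhibitors among the 10 genes that fell in XY cells (RefSeq, GRCm38.p6). Capitals mark CG dinucleotides, the bases at which DNA is methylated and on which TET enzymes act.
Upstream of the p19ARF start, chr4:89294654-89294869, minus strand, the part of the 250-base window that holds no annotated exon: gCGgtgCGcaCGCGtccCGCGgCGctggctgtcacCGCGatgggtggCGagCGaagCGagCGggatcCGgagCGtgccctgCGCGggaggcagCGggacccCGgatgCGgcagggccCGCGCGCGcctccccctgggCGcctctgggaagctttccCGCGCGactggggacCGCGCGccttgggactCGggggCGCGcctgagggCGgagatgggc
Upstream of the p16INK4A start, chr4:89282193-89282442, minus strand, within the first intron of Cdkn2a-202: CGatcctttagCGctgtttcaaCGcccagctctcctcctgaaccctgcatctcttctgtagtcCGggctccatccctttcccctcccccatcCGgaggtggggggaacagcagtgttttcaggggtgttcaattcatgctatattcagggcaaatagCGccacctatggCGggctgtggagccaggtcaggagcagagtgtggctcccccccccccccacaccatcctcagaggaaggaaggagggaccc
Upstream of the Cdkn1a-201 start, chr17:29093519-29093768, plus strand: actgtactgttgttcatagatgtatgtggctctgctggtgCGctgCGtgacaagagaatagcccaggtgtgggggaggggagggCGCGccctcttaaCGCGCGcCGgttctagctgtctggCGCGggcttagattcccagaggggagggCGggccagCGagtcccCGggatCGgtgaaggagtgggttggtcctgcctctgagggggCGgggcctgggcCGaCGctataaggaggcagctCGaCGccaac
Over the 250 bases before the RefSeq start, the p19ARF promoter held 40 CG dinucleotides, the p16INK4A promoter 7 and the Cdkn1a-201 promoter 19. Among 32851 upstream windows of this length the median was 6, and 1.31% had as many as the p19ARF window, 46.3% as many as the p16INK4A window and 19.7% as many as the Cdkn1a-201 window. An E2F-type motif (TTTCCCGC, TTTCGCGC, TTTGCCGC or TTTGGCGC, both strands) was found in the p19ARF window, as TTTCCCGC, and in 1.86% of all windows. The GC box letters GGGCGG were found in the p19ARF and Cdkn1a-201 windows and in 32.7% of all windows. These matches describe letters only. Methylation and factor binding were not measured here. Promoter windows were found for 7 of the 10 genes, and Ccnd1, Ccnd2 and Ccne2 had none.

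Across the 3 transitions from mESC to EpiLC, Ccnd2 and Cdk6 rose and Ccnd3 and Cdkn2a fell in all 3 genotypes, while Ccnd1 and Cdkn1a moved in opposite or different ways by line. In XX cells 5 of the 10 genes passed the threshold (limma, Benjamini-Hochberg adjusted p under 0.05), 3 higher and 2 lower, where 50.4% of all tested genes passed, 24.5% higher and 25.9% lower. In XY cells 6 passed, 2 higher and 4 lower, against 51.4% of all genes, 26.4% higher and 25% lower. In Tet3-/- cells 4 passed, 2 higher and 2 lower, against 52.4% of all genes, 25.2% higher and 27.2% lower. These shares were near the background, so the transitions are described gene by gene. The 10 genes had a median log2 change of 0.46 (XX), -0.28 (XY) and 0.20 (Tet3-/-), and that of all tested genes was within 0.02 of 0 on this scale. On the deposited TPM the median of all genes moved to 0.14, 0.54 and -0.13 in the same order, so falls in XY cells are smaller and rises larger on that scale.

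**Figure D1:**
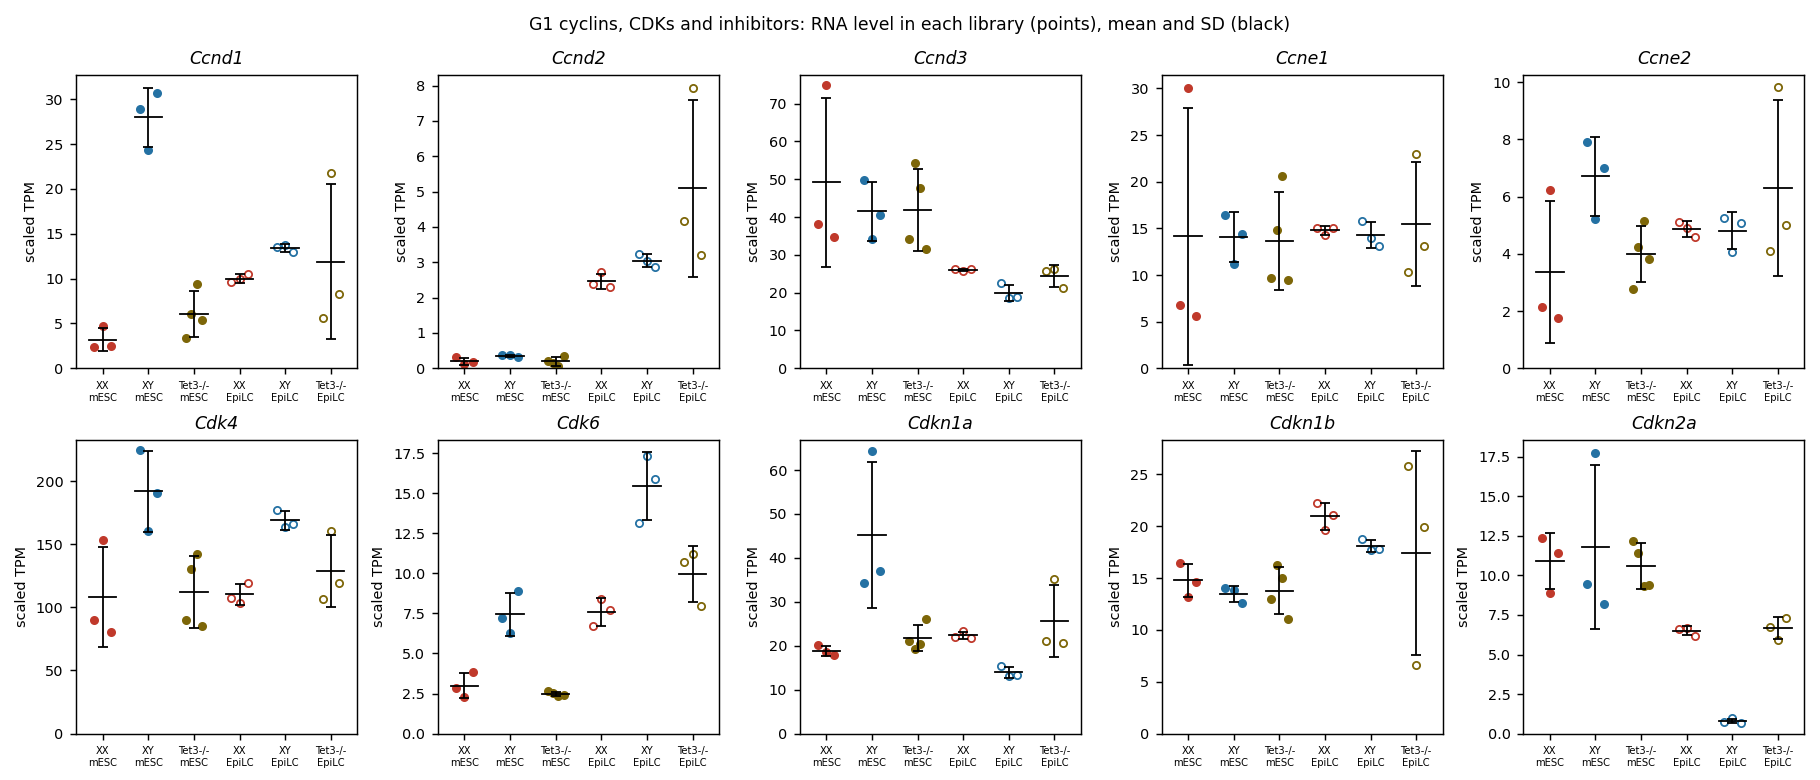
RNA level (scaled TPM, linear axes from 0) of the 10 genes in each of the 19 libraries, with filled points for mESC and open points for EpiLC, and the mean and SD of each group in black. Ccnd1 was highest in XY mESC (24.3 to 30.7), and Cdkn2a was lowest in XY EpiLC (0.685 to 0.960).

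Among the D-type cyclins, Ccnd3 (chr17:47505051-47599691, plus strand, GRCm38) was the most abundant in every group by these per-length values. In XX mESC it was at 38.1, 74.9 and 34.6 scaled TPM, and in XX EpiLC at 26.3, 25.7 and 26.2. The XY libraries had 49.8, 34.3 and 40.5 in mESC and 22.5, 18.7 and 18.8 in EpiLC. Tet3-/- cells had 34.1, 54.2, 47.6 and 31.5 in mESC and 25.8, 26.4 and 21.1 in EpiLC. Every EpiLC library was below every mESC library of its genotype. Ccnd3 fell by 0.81 ± 0.245 (log2, SE; adjusted p = 0.0116) in XX, by 1.01 ± 0.245 (adjusted p = 0.00259) in XY and by 0.73 ± 0.229 (adjusted p = 0.0139) in Tet3-/- cells, by limma. On the deposited TPM, where 31.3%, 50.5% and 35.1% of all genes passed in XX, XY and Tet3-/- transitions, none of the 3 falls passed, with changes of -0.60, -0.36 and -0.89 and with groups that overlapped. The XX fall was also lost without XX mESC replicate 2, at -0.47, and the Tet3-/- fall without mutant #4 of the EpiLC, at -0.63. Over all refits the adjusted p ranged from 0.00426 to 0.292 in XX, from 0.000242 to 0.466 in XY and from 0.00286 to 0.0728 in Tet3-/- cells. Ccnd3 overlaps Bysl on the opposite strand, and the strand setting of the quantification is not given in the sources used here.

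Ccnd1 (chr7:144929931-144939925, minus strand), the D-type cyclin that growth factor signalling through MEK and ERK is known to induce, separated the lines in mESC. Its level was 2.36, 4.69 and 2.51 in XX mESC and 28.9, 24.3 and 30.7 in XY mESC. Tet3-/- mESC had 3.35, 6.10, 9.41 and 5.34. The XY libraries were all higher than every library of the LF2 line in this state. In EpiLC the levels came closer, with 9.57, 9.96 and 10.5 in XX, 13.5, 13.8 and 12.9 in XY, and 5.59, 21.7 and 8.32 in Tet3-/- cells. Ccnd1 rose by 1.44 ± 0.355 (adjusted p = 0.00297, limma) in XX and fell by 1.00 ± 0.355 (adjusted p = 0.0265) in XY cells. The difference between these transitions was 2.44 ± 0.502 (adjusted p = 0.00209), where 23.7% of all genes passed and 10.9% had a higher change in XX. The XX rise passed in 17 of 17 refits. The XY fall passed in 8 of 17 refits, with adjusted p from 0.00035 to 0.566. It was lost on the deposited TPM, at -0.36, and when any XY library other than mESC replicate 2 was left out, with adjusted p from 0.0585 to 0.0709. The difference of the transitions passed in 22 of 23 refits and was 1.92 on the deposited TPM, where it did not pass. In Tet3-/- cells the change was 0.73 ± 0.332 (adjusted p = 0.0749), with a 95% interval from 0.03 to 1.44. Without mutant #3 of the EpiLC it was 0.22. It passed without mutant #1 of the EpiLC, at 1.12 (adjusted p = 0.0112), and without mutant #3 of the mESC, at 0.94 (adjusted p = 0.0285). With the replicate or mutant number as a block it passed too, at 0.78 (adjusted p = 0.0482).

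Ccnd2 (chr6:127125162-127152193, minus strand) was the least abundant D-type cyclin in every group and rose in all 3 genotypes. In the mESC libraries it ran from 0.0718 in Tet3-/- mutant #3 to 0.381 in XY replicate 2. It reached 2.37, 2.71 and 2.29 in XX EpiLC, 3.24, 3.03 and 2.86 in XY EpiLC and 4.16, 7.92 and 3.19 in Tet3-/- EpiLC, so no EpiLC library overlapped an mESC library. The log2 changes were 1.53 ± 0.19 in XX (adjusted p = 5.19e-06), 1.58 ± 0.19 in XY (adjusted p = 3.26e-06) and 2.28 ± 0.177 in Tet3-/- cells (adjusted p = 1.78e-08), on a log2(value + 1) scale that understates changes from such low levels. All 3 rises passed in every refit that tested the gene, that with no filter among them. Ccnd2 met the filter only through its EpiLC libraries. Its deposited TPM was at most 0.443 in mESC and at least 2.04 in EpiLC, so its rise is not independent of the filter. Antisense genes Gm43126 and 9330179D12Rik overlap Ccnd2.

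The make-up of the D-type cyclin RNA differed between the states, with larger shifts of the Ccnd3 share in the LF2 line than in XY cells. Ccnd3 held 93.4% ± 0.587 (SD, n = 3) of the summed D-type cyclin TPM in XX mESC, 87.1% ± 3.56 (n = 4) in Tet3-/- mESC and 59.2% ± 3.33 (n = 3) in XY mESC. In EpiLC its share was 67.6% ± 0.964 in XX, 61.5% ± 13.1 in Tet3-/- and 54.8% ± 2.38 in XY cells (n = 3 each). Ccnd1 held 6.13% in XX mESC and 40.2% in XY mESC, and 26.0% and 36.9% in the corresponding EpiLC. In XY cells both shares overlapped between the states. The Ccnd3 share was 56.6% to 63.0% in XY mESC and 52.6% to 57.3% in XY EpiLC libraries, and the Ccnd1 share 36.6% to 42.9% and 34.4% to 38.9%. Ccnd2 held at most 0.961% in any mESC library and 5.87% to 14.1% in EpiLC libraries. These shares do not depend on the scaling of the libraries, since all 3 genes are divided by the same factor.

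**Figure D2:**
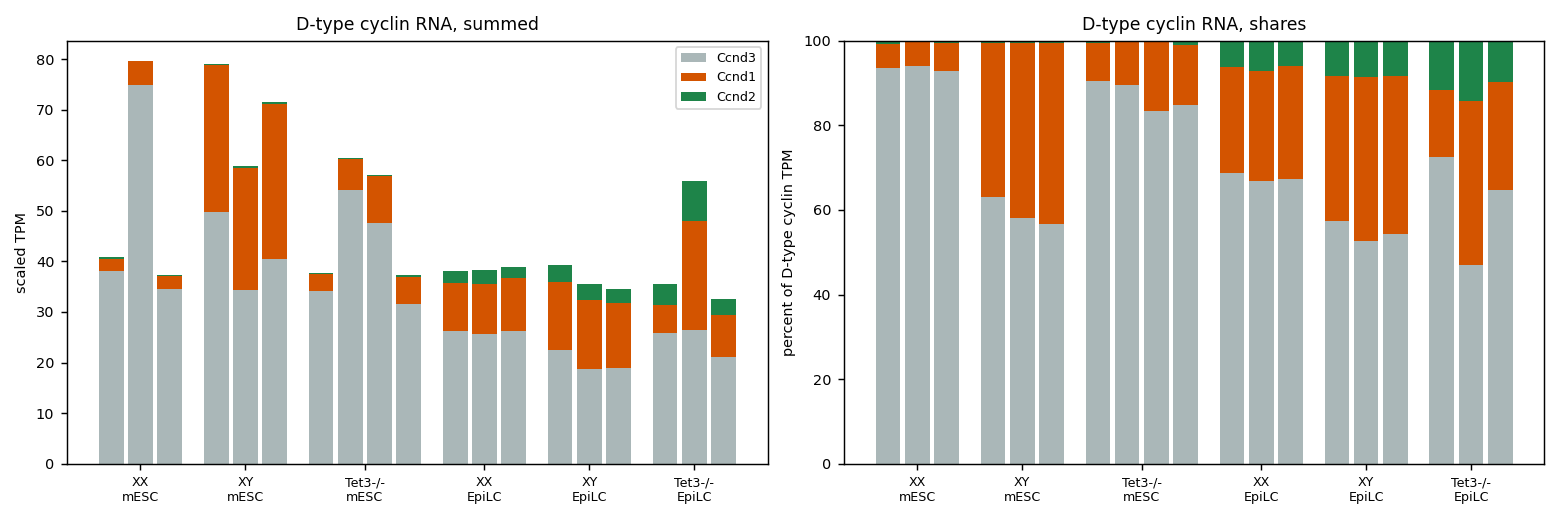
D-type cyclin RNA in each library, as stacked scaled TPM (left) and as percent of the summed D-type cyclin TPM (right), with 1 bar for each library in the order of its replicate or mutant number. Ccnd3 (grey) held 92.8% to 94.0% in XX mESC, and Ccnd1 (orange) 36.6% to 42.9% in XY mESC.

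The E-type cyclins, which activate CDK2 at the end of G1, did not pass in any transition. Ccne1 lies at chr7:38097984-38107534 (minus strand) and Ccne2 at chr4:11191351-11204779 (plus strand). Ccne1 was at 6.82, 30.0 and 5.58 in XX mESC, 16.5, 11.2 and 14.5 in XY mESC and 9.71, 14.9, 20.6 and 9.51 in Tet3-/- mESC. In EpiLC it was at 15.1, 14.3 and 15.0 in XX, 15.8, 14.0 and 13.2 in XY and 10.3, 23.0 and 13.1 in Tet3-/- cells. Replicate 2 of XX mESC was far above the others of its group. The changes were 0.43 ± 0.44 in XX, 0.04 ± 0.44 in XY and 0.16 ± 0.411 in Tet3-/- cells (limma adjusted p = 0.442, 0.959 and 0.773). Without XX mESC replicate 2 the XX change was 1.13 and passed. Ccne2 was lower than Ccne1 in every group by per-length level, at 2.13, 6.22 and 1.75 in XX mESC, 7.91, 5.20 and 7.00 in XY mESC and 2.77 to 5.14 in Tet3-/- mESC. Its EpiLC values were 4.57 to 5.12 in XX, 4.07 to 5.27 in XY and 4.10, 9.82 and 5.00 in Tet3-/- cells. Its change was 0.57 ± 0.314 in XX (adjusted p = 0.148), and without XX mESC replicate 2 it was 1.00 and passed. Ccne2 overlaps Ints8 on the opposite strand.

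Of the CDK4/6 kinases, Cdk4 (chr10:127063534-127067920, plus strand) did not pass in any transition and Cdk6 (chr5:3341485-3531008, plus strand) rose in all 3. Cdk4 was the most abundant of the 10 genes, at 90.3, 153 and 80.7 in XX mESC, 225, 161 and 190 in XY mESC and 89.7, 130, 142 and 85.3 in Tet3-/- mESC. In EpiLC it was at 108, 104 and 119 in XX, 177, 164 and 166 in XY and 106, 161 and 119 in Tet3-/- cells. Its 95% intervals ran from -0.42 to 0.59 in XX, from -0.67 to 0.33 in XY and from -0.26 to 0.68 in Tet3-/- cells. Cdk4 overlaps Tspan31 on the opposite strand.

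Cdk6 was at 2.84, 2.28 and 3.83 in XX mESC and at 6.69, 8.41 and 7.71 in XX EpiLC. It was at 7.20, 6.25 and 8.88 in XY mESC and 13.1, 17.3 and 15.9 in XY EpiLC. In Tet3-/- cells it went from 2.65, 2.51, 2.35 and 2.42 to 10.7, 11.2 and 7.94. The groups did not overlap in any genotype. The rises were 1.12 ± 0.158 (adjusted p = 1.97e-05), 0.96 ± 0.158 (adjusted p = 8.53e-05) and 1.64 ± 0.148 (adjusted p = 1.03e-07) in XX, XY and Tet3-/- cells, and each passed in every refit. The ratio of Cdk4 to Cdk6 level was 40.1 ± 24.2 (SD, n = 3) in XX mESC, 26.1 ± 4.93 (n = 3) in XY mESC and 45.4 ± 13.0 (n = 4) in Tet3-/- mESC. In EpiLC it was 14.6 ± 2.02, 11.1 ± 2.12 and 13.1 ± 2.75 (n = 3 each). Every EpiLC library had a lower ratio (9.46 to 16.1) than every mESC library.

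The transcripts behind Cdk6 differed as well. The annotation holds a pair of short Cdk6 transcripts of 2 exons each, one with 246 and one with 87 coding bases, beside full-length transcripts of 7 and 8 exons, which have 978 coding bases each. The short transcript of 246 coding bases held 80.9% ± 13.4 (SD, n = 3) of Cdk6 TPM in XX mESC, 58.4% ± 17.8 (n = 4) in Tet3-/- mESC and 24.3% ± 5.21 (n = 3) in XY mESC. In EpiLC its share was 8.35% ± 4.19 in XX, 11.0% ± 4.81 in Tet3-/- and 16.8% ± 2.57 in XY cells (n = 3 each). In a limma fit over 36314 transcripts, in which 35.3%, 35.2% and 35.4% passed in the XX, XY and Tet3-/- transitions, this transcript fell by 1.05 ± 0.237 in XX cells (adjusted p = 0.00228). It did not pass in XY or Tet3-/- cells, at 0.35 and -0.25 (adjusted p = 0.28 and 0.417). The short transcript of 87 coding bases moved the other way in XX cells, where it rose by 1.73 ± 0.218 (adjusted p = 1.04e-05), and it also rose in XY cells by 0.86 ± 0.218 (adjusted p = 0.00556) and in Tet3-/- cells by 1.56 ± 0.204 (adjusted p = 1.33e-05). Its share of Cdk6 TPM went from 3.87% ± 0.808 to 35.9% ± 2.94 in XX, from 22.5% ± 4.06 to 25.0% ± 6.65 in XY and from 11.6% ± 5.34 to 28.5% ± 8.49 in Tet3-/- cells. The full-length transcript of 7 exons rose by 1.53 ± 0.173 in XX cells (adjusted p = 3.24e-06). The full-length pair summed to 0.187 to 0.667 scaled TPM in XX mESC and 3.57 to 4.39 in XX EpiLC. In XY cells the pair summed to 3.18 to 4.13 in mESC and 7.79 to 8.28 in EpiLC. In Tet3-/- cells it summed to 0.413 to 1.15 and 4.81 to 6.71. The gene sum of Cdk6 therefore understates how far the full-length transcripts differed between XX mESC and XX EpiLC. The transcript values are estimates by the authors' quantification, and antisense genes Gm17590 and Gm42435 overlap Cdk6.

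Of the CIP/KIP inhibitors, Cdkn1a (chr17:29090976-29100727, plus strand) fell in XY cells. Its level was 34.4, 64.3 and 37.0 in XY mESC and 15.4, 13.1 and 13.4 in XY EpiLC. XX cells had 20.1, 18.7 and 17.9 in mESC and 22.1, 23.3 and 21.7 in EpiLC, and Tet3-/- cells had 21.1, 19.3, 20.4 and 26.1 in mESC and 21.1, 35.2 and 20.5 in EpiLC. The XY mESC libraries were all above every LF2 mESC library, and on these scaled values the XY EpiLC libraries were below every other library. On the deposited TPM that lowest rank was lost: XY EpiLC was at 21.2 to 22.8, above every XX mESC library (12.0 to 19.6). Cdkn1a fell by 1.57 ± 0.21 in XY cells (adjusted p = 1.01e-05, limma), and this passed in 17 of 17 refits. In XX cells the change was 0.23 ± 0.21 (adjusted p = 0.385), and it was 0.19 ± 0.196 in Tet3-/- cells (adjusted p = 0.437). The difference of the XX and XY transitions was 1.80 ± 0.297 (adjusted p = 0.000356). It passed in 22 of 23 refits, with adjusted p from 0.000139 to 0.0609, and was 1.36 on the deposited TPM, where it did not pass. Cdkn1a-201, whose promoter is printed above, held the largest share of Cdkn1a TPM in every group, from 66.3% ± 5.15 in XY EpiLC (n = 3) to 83.9% ± 3.19 in Tet3-/- mESC (n = 4).

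Cdkn1b (chr6:134920401-134925513, plus strand) was at 16.5, 13.2 and 14.6 in XX mESC and 22.2, 19.6 and 21.1 in XX EpiLC, and at 14.0, 13.8 and 12.6 in XY mESC and 18.8, 17.7 and 17.8 in XY EpiLC. The EpiLC libraries lay above the mESC libraries in both lines, but the changes of 0.48 ± 0.301 and 0.40 ± 0.301 did not pass (limma adjusted p = 0.199 and 0.280). Tet3-/- cells had 12.9, 16.2, 15.0 and 11.0 in mESC and 25.8, 6.62 and 19.9 in EpiLC. The lowest of these came from mutant #3, the library with the high mesendoderm markers, and without it the Tet3-/- change was 0.69 and passed, against 0.15 with it. With both libraries that stood apart left out, the XX and XY changes were 0.41 and 0.40 and passed too. On the deposited TPM the XX and XY changes were 0.68 and 1.05 and passed. The median of all tested genes was itself 0.14 and 0.54 there, and 31.3% and 50.5% of all genes passed.

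Cdkn2a fell in all 3 genotypes, and furthest in XY cells. It was at 12.4, 8.92 and 11.4 in XX mESC, 9.46, 17.7 and 8.17 in XY mESC and 12.2, 11.4, 9.33 and 9.39 in Tet3-/- mESC, and these groups overlapped. In EpiLC it was at 6.63, 6.70 and 6.17 in XX and at 6.75, 5.93 and 7.30 in Tet3-/- cells, but at 0.756, 0.960 and 0.685 in XY cells. No EpiLC library overlapped an mESC library of its genotype. The falls were 0.66 ± 0.2 (adjusted p = 0.012) in XX, 2.76 ± 0.2 (adjusted p = 8.48e-09) in XY and 0.59 ± 0.187 (adjusted p = 0.0139) in Tet3-/- cells. The XY fall and the difference of the XX and XY transitions, 2.10 ± 0.283 (adjusted p = 5.81e-05), passed in all refits (17 and 23). The XX fall passed in 15 of 17, being lost without XX mESC replicate 1 and on the deposited TPM, at -0.45. The Tet3-/- fall passed in 17 of 18, being lost without mutant #3 of the EpiLC, at -0.52 (adjusted p = 0.0519).

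The transcript for p19ARF fell in all 3 genotypes. Cdkn2a-202 was at 10.4, 8.66 and 9.38 in XX mESC and 4.34, 5.41 and 4.86 in XX EpiLC. In XY cells it was at 8.67, 14.6 and 7.17 and then at 0.468, 0.449 and 0.430. In Tet3-/- cells it went from 10.7, 11.0, 8.64 and 8.09 to 3.91, 4.28 and 5.42. It fell by 0.84 ± 0.189 (adjusted p = 0.00238), 2.89 ± 0.189 (adjusted p = 4.79e-09) and 0.94 ± 0.177 (adjusted p = 0.000496) in XX, XY and Tet3-/- cells, in the limma fit over transcripts. Cdkn2a-201, for p16INK4A, was at 1.99, 0.257 and 2.04 in XX mESC and 2.29, 1.29 and 1.31 in XX EpiLC, at 0.788, 3.11 and 0.995 and then 0.287, 0.510 and 0.255 in XY cells, and at 0.409 to 1.48 and then 1.65 to 2.84 in Tet3-/- cells. Its changes of 0.20 ± 0.345, -0.86 ± 0.345 and 0.68 ± 0.322 did not pass (adjusted p = 0.693, 0.0626 and 0.115). Its XY EpiLC values were nevertheless all below its XY mESC values, and the log2(value + 1) scale understates changes at such low levels. A fall of this transcript in XY cells is therefore not excluded. Between the lines in EpiLC, where 21.2% of transcripts passed, Cdkn2a-202 was higher in XX by 2.01 ± 0.189 (adjusted p = 1.34e-06). Between Tet3-/- and XX EpiLC, where 2.16% passed, it gave -0.09 ± 0.189 (adjusted p = 0.869). The share of Cdkn2a TPM held by Cdkn2a-202 was 87.7% ± 8.19 in XX mESC, 87.3% ± 4.62 in XY mESC and 90.8% ± 4.69 in Tet3-/- mESC, and 75.0% ± 8.36, 57.2% ± 9.01 and 68.2% ± 8.89 in the corresponding EpiLC (SD, n = 3, or 4 for Tet3-/- mESC). The split between transcripts is an estimate of the authors' quantification.

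**Figure D3:**
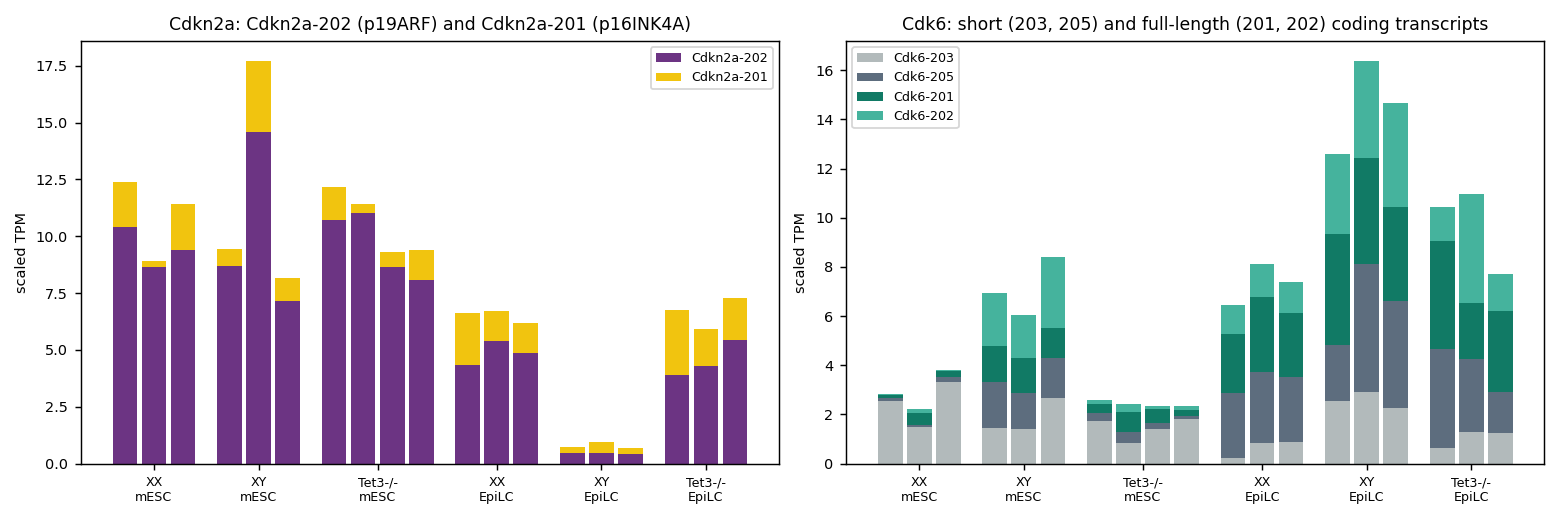
Transcript levels (scaled TPM, stacked, 1 bar for each library in the order of its replicate or mutant number) of Cdkn2a (left) and of Cdk6 (right). Cdkn2a-202 (purple) was at 0.430 to 0.468 in XY EpiLC, the Cdk6 transcript of 246 coding bases (light grey) held 65.5% to 90.1% of Cdk6 TPM in the XX mESC libraries, and that of 87 coding bases (dark grey) held 34.1% to 39.3% in the XX EpiLC libraries.

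**Figure D4:**
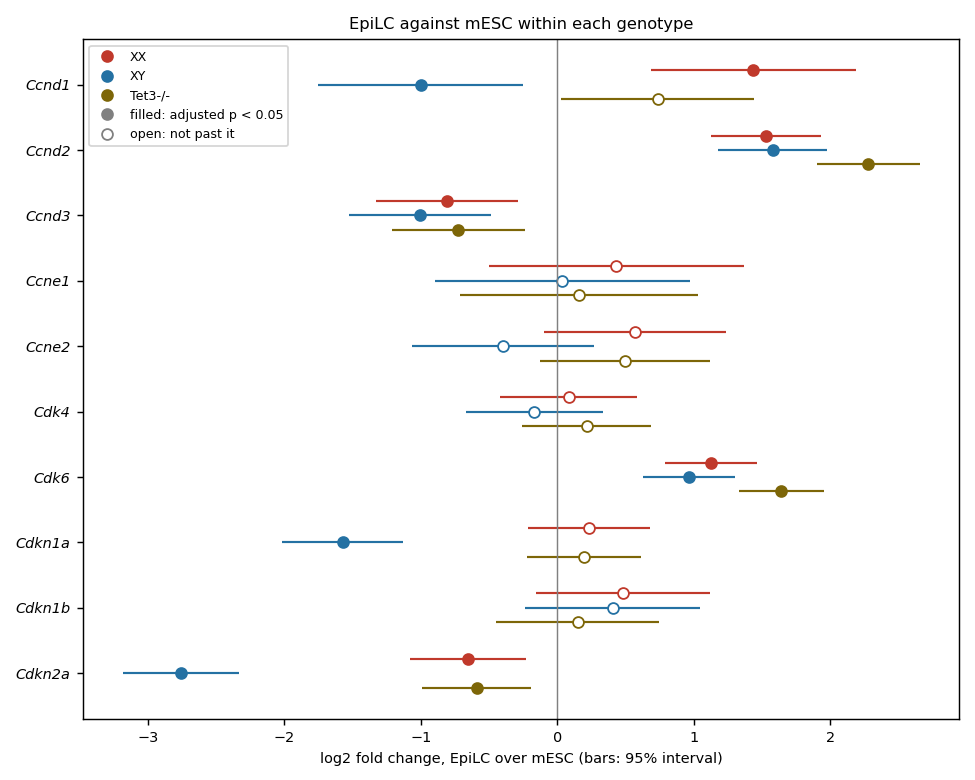
Log2 fold change of EpiLC over mESC for each gene in XX, XY and Tet3-/- cells, with 95% intervals and with filled points for adjusted p under 0.05. Ccnd2 and Cdk6 lie to the right in all 3 genotypes, and Ccnd1 lies at 1.44 in XX cells and on the other side of 0 in XY cells.

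Loss of TET3 in the LF2 line was compared within each state. In mESC 0 of the 10 genes passed by limma, where 3.18% of all tested genes did (1.77% higher in Tet3-/-), and 1 gene, Ccnd1, had an unadjusted p under 0.05. In EpiLC 1 gene passed, Ccnd2, which was higher in Tet3-/- cells by 0.74 ± 0.19 (adjusted p = 0.03), where 5.46% of all genes passed and 2.5% were higher. Its 3 Tet3-/- values (4.16, 7.92 and 3.19) were all above its 3 XX values (2.37, 2.71 and 2.29), but on the deposited TPM the groups overlapped. It passed in 7 of 16 refits, with adjusted p from 0.00412 to 0.472 and changes from 0.43 to 0.98, and it was lost without any 1 of the XX EpiLC libraries. With both libraries that stood apart left out it passed at 0.43 ± 0.114 (adjusted p = 0.0371), where 6.95% of all genes passed and 3.35% were higher. The state markers differed between these groups too: of 8 naive markers 5 were lower in Tet3-/- EpiLC and 0 higher, and of 6 formative markers 3 were higher and 0 lower, and their part in the Ccnd2 result was not tested. The difference between the Tet3-/- and XX transitions passed for 0 of the 10 genes by limma, where 0.661% of all genes passed (0.247% higher and 0.414% lower), and Ccnd2 (0.75 ± 0.26) and Cdk6 (0.52 ± 0.217) had an unadjusted p under 0.05. The intervals leave room for differences, for example from -1.73 to 0.33 for Ccnd1 and from -0.52 to 0.64 for Cdkn2a.

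The mESC count and the count of differing transitions changed when the libraries that stood apart were left out. That choice was made after seeing the data, and the libraries stood apart in several of these same genes. The p-values of the refits below are therefore no independent support for a difference. Without XX mESC replicate 2 and Tet3-/- EpiLC mutant #3, 3 genes were higher in Tet3-/- than in XX mESC, where 17.9% of all genes passed and 7.97% were higher: Ccne1 by 0.97 ± 0.238, Ccnd1 by 0.97 ± 0.237 and Ccne2 by 0.74 ± 0.175 (limma adjusted p = 0.0135, 0.0135 and 0.0109). Without XX mESC replicate 2 alone, Ccne1 passed. With both left out, the transitions of 2 genes differed, where 6.02% of all genes passed and 2.61% were lower: Ccnd1 by -1.45 ± 0.345 (adjusted p = 0.0261) and Ccne1 by -1.28 ± 0.345 (adjusted p = 0.0434). In that refit the Tet3-/- changes of Ccnd1 and Ccne1 were 0.22 and -0.15 and did not pass (adjusted p = 0.451 and 0.62), and the XX change of Ccne1 was 1.14 (adjusted p = 0.00147).

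The XX and XY lines differed more. In mESC 5 of the 10 genes passed and all 5 were lower in XX, where 31.3% of all genes passed in either direction and 13.6% were lower in XX. Ccnd1 was lower by 2.83 ± 0.355 (adjusted p = 1.82e-05), Cdkn1a by 1.16 ± 0.21 (adjusted p = 0.000509) and Cdk6 by 1.09 ± 0.158 (adjusted p = 7.38e-05), and each of these passed in 17 of 17 refits. Cdk4 was lower by 0.87 ± 0.237 (adjusted p = 0.0105) and Ccne2 by 0.94 ± 0.314 (adjusted p = 0.0309). These passed in 12 and 8 of 17 refits, with adjusted p up to 0.086 and 0.157. Cdk4 was lost without XX replicate 1, XX replicate 3 or XY replicate 1, and Ccne2 without any of these or XY replicate 3. Neither passed on the deposited TPM, at -1.14 and -1.12. Ccnd3, Cdkn1b and Cdkn2a gave 0.17, 0.12 and -0.04 with adjusted p of 0.647, 0.805 and 0.907, and Ccne1 gave -0.35, or -1.05 without XX mESC replicate 2, where it passed.

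In EpiLC 3 of the 10 genes passed between the lines, where 33.8% of all genes did, 17.2% higher and 16.6% lower in XX. Cdkn2a was higher in XX by 2.06 ± 0.2 (adjusted p = 8.78e-07) and passed in 17 of 17 refits. Cdk6 was lower in XX by 0.93 ± 0.158 (adjusted p = 0.000258), also in 17 of 17. Cdkn1a was higher in XX by 0.64 ± 0.21 (adjusted p = 0.0263), but this passed in 9 of 17 refits, with adjusted p from 0.000613 to 0.906, and its sign turned on the deposited TPM, at -0.06. Leaving out any XX or XY EpiLC library other than XY replicate 1 ended the call, at 0.60 to 0.66. Cdk4 was at -0.61 ± 0.237 and did not pass (limma adjusted p = 0.0559), though its XX and XY values did not overlap. On the deposited TPM it was at -1.35 and passed. The median of all tested genes was itself -0.585 on that scale, and 47.2% of all genes passed there. With both libraries that stood apart left out it was at -0.61 ± 0.176 and passed (adjusted p = 0.0115). For the difference of the XX and XY transitions, 3 of the 10 genes passed (Ccnd1, Cdkn1a and Cdkn2a, above). Of all genes 23.7% passed there and 10.9% had a higher change in XX. With both libraries left out 5 passed, where 37.5% of all genes passed and 17.1% had a higher change in XX. The added genes were Ccne1, at 1.1 ± 0.336 (adjusted p = 0.0191), and Ccne2, at 1.40 ± 0.248 (adjusted p = 0.000593). Ccne2 also passed without XX mESC replicate 2 alone, at 1.40 (adjusted p = 0.0068).

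**Figure D5:**
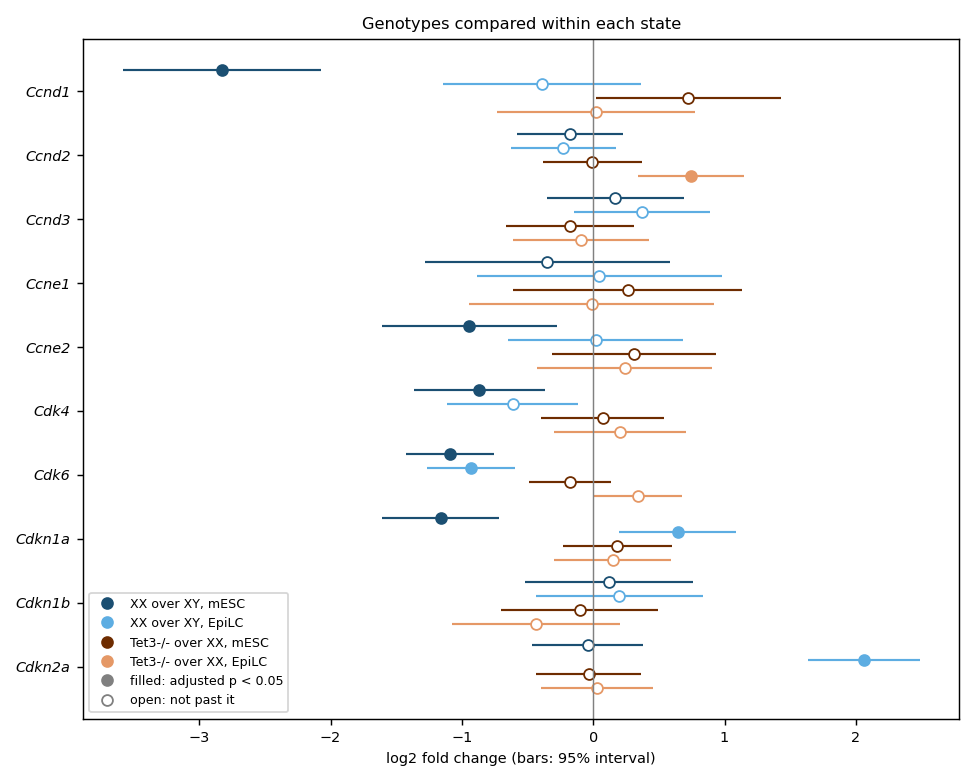
Log2 fold change of XX over XY (blue) and of Tet3-/- over XX (brown) in mESC and in EpiLC for each gene, with 95% intervals and with filled points for adjusted p under 0.05. Ccnd1 lies at -2.83 for XX over XY in mESC, and Ccnd2 at 0.74 in EpiLC is the filled point of the Tet3-/- comparisons.

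Ordered by level, neighbouring groups mostly overlapped. Ccnd1 ran from XY mESC through XY, Tet3-/- and XX EpiLC to Tet3-/- and XX mESC, and only XY mESC over XY EpiLC (mean 28.0 against 13.4) and XX EpiLC over Tet3-/- mESC (10.0 against 6.05) were separate among neighbours. For Cdk6, XY EpiLC (15.4) stood above Tet3-/- EpiLC (9.94), and XY mESC (7.44) was beside XX EpiLC (7.60) and above XX mESC (2.98). For Cdkn2a, the break between Tet3-/- mESC (10.6) and Tet3-/- EpiLC (6.66) and that between XX EpiLC (6.50) and XY EpiLC (0.800) were the separate steps. No neighbouring groups were separate for Ccne1 or Ccne2.

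The other CDK inhibitors were read beside these genes. Cdkn2b, which encodes p15INK4B, lies 11646 bases from Cdkn2a at chr4:89306299-89311039. It was at 3.73, 6.36 and 2.66 in XY mESC and 0.998, 0.459 and 0.478 in XY EpiLC, while XX cells had 2.97, 1.54 and 2.19 and then 3.86, 4.12 and 4.21. It fell by 1.63 in XY cells (adjusted p = 1.68e-05) and rose by 0.67 in XX cells (adjusted p = 0.0217). The difference of these transitions was 2.30 (adjusted p = 8.34e-05), and 2.14 on the deposited TPM (adjusted p = 4.27e-05). Cdkn2a and Cdkn2b thus both fell in XY cells, to under 1 scaled TPM in every XY EpiLC library. Cdkn1c, which encodes p57, rose by 1.16, 1.59 and 0.99 in XX, XY and Tet3-/- cells (limma adjusted p = 0.000146, 5.19e-06 and 0.000304). It was low in mESC, at 0.0766 to 1.54, and met the filter only through its EpiLC libraries. Its rises are therefore not independent of the filter. Of the 4 genes on this list 3 were tested, since Cdkn2c was below the filter, and called genes were 2 higher and 0 lower in XX, 1 and 2 in XY, and 1 and 1 in Tet3-/- cells. Among all tested genes 24.5% were higher and 25.9% lower in XX, 26.4% and 25% in XY, and 25.2% and 27.2% in Tet3-/- cells. The third tested gene, Cdkn2d, which encodes p19INK4D, fell by 0.68 in XY and by 0.67 in Tet3-/- cells (adjusted p = 0.00205 and 0.00128), and on the deposited TPM the XY change was -0.16 and did not pass.

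Cdk2, the partner of the E-type cyclins, went from 25.4, 35.3 and 25.2 to 14.8, 14.1 and 14.6 in XX cells, from 29.2, 25.6 and 28.2 to 15.9, 16.3 and 16.3 in XY cells and from 24.2, 29.4, 33.8 and 23.4 to 12.1, 18.1 and 13.9 in Tet3-/- cells. It fell by 0.92, 0.74 and 0.87 (limma adjusted p = 0.000126, 0.000838 and 9.4e-05), and on the deposited TPM the changes were -0.71, -0.09 and -1.03. Of the 12 other cyclins, CDKs and CDC25 genes, 0 were called higher and 3 lower in XX, 0 and 3 in XY, and 1 and 2 in Tet3-/- cells. Among all tested genes 24.5% were higher and 25.9% lower in XX, 26.4% and 25% in XY, and 25.2% and 27.2% in Tet3-/- cells. Ccnh, the cyclin partner of CDK7, had the lowest called change in XX, -1.0, and in Tet3-/- cells, -0.92 (adjusted p = 1.25e-06 and 1.33e-06), and Mnat1, which encodes the assembly factor of that pair, was the gene called higher, at 0.56 (adjusted p = 0.00711). On the deposited TPM these counts were 1 and 1, 3 and 0, and 0 and 2, so no direction is read from them.

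Downstream of the kinases, Rb1, which encodes RB, was at 6.72, 3.10 and 6.73 in XX mESC and 10.3, 10.2 and 10.5 in XX EpiLC. It rose by 0.86 in XX (adjusted p = 0.0144) and by 0.86 in Tet3-/- cells (adjusted p = 0.00938), and in XY cells the change was 0.28 (adjusted p = 0.414). Its changes on the deposited TPM were 1.04, 0.70 and 0.83 in XX, Tet3-/- and XY cells, of which XX and XY passed. The median of all tested genes on that scale was 0.14, -0.13 and 0.54 in the same order. In the RB and E2F list of 13 genes, 3 rose and 3 fell in XX, 3 rose and 2 fell in XY, and 2 rose and 4 fell in Tet3-/- cells. Among all tested genes 24.5% rose and 25.9% fell in XX, 26.4% and 25% in XY, and 25.2% and 27.2% in Tet3-/- cells. E2f7, a repressor of E2F targets, rose furthest in each, by 1.41, 0.78 and 1.08 (adjusted p = 3.08e-06, 0.00089 and 2.02e-05). E2f1, an activator, fell by 0.88 in XX cells (adjusted p = 0.000419), the lowest change called there. Rbl2, which encodes the RB relative p130, had the lowest called change in XY, -0.60 (adjusted p = 0.0334), and in Tet3-/- cells, -1.21 (adjusted p = 0.000117), and it did not pass on the deposited TPM in XY cells, at -0.12. Of 14 genes of S phase, 2 fell in XX (Mcm6 furthest) and 2 in Tet3-/- cells, and 0 were called in XY by limma, where 0 had an unadjusted p under 0.05. With both libraries that stood apart left out, 0 rose and 10 fell in Tet3-/- cells, where 30.3% of all genes fell. In that refit 1 rose and 1 fell in XX and 0 rose and 2 fell in XY cells, where 28.6% and 30% of all genes fell. None of the 14 was called in any transition on the deposited TPM.

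Trp53, which encodes p53, did not pass in any transition, at -0.53, -0.63 and -0.27 in XX, XY and Tet3-/- cells (adjusted p = 0.218, 0.143 and 0.508). In the list of 14 genes holding Trp53 and targets of p53 other than Cdkn1a, 6 rose and 1 fell in XX, 2 rose and 5 fell in XY, and 8 rose and 1 fell in Tet3-/- cells. Among all tested genes 24.5% rose and 25.9% fell in XX, 26.4% and 25% in XY, and 25.2% and 27.2% in Tet3-/- cells. On the deposited TPM the XY split turned to 7 higher and 1 lower, where 50.5% of all genes passed and the median change of all genes was 0.54. Between the lines in EpiLC 9 of the 14 were higher in XX and 0 lower, and 3 higher and 1 lower on the deposited TPM, where 33.8% and 47.2% of all genes passed. On the scaled values 17.2% of all genes were higher in XX and 16.6% lower. With both libraries that stood apart left out, 9 were higher and 1 lower, where 45% of all genes passed and 22.9% were higher. The median of the list was 0.88 there, or 0.17 on the deposited TPM. Perp, a membrane protein gene, was highest, at 2.30 (adjusted p = 2.2e-06). Btg2, an antiproliferative gene, had the highest difference of the XX and XY transitions in the list, 1.40 (adjusted p = 0.011). Pmaip1, which encodes the death protein NOXA, rose by 3.20 in XX and 3.44 in XY cells (adjusted p = 2.2e-06 and 8.34e-07), the highest changes in this list in these lines. Gdf15, which encodes a secreted stress-response protein, had the lowest called change in each transition, falling by 0.74, 1.26 and 0.37 in XX, XY and Tet3-/- cells (adjusted p = 8.93e-05, 2.31e-07 and 0.0115). Its XY fall passed on the deposited TPM, at -0.91, and the others did not, at -0.55 and -0.47.

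Upstream of the D-type cyclins, Myc was at 0.0484 to 0.267 in XX mESC, 0.0326 to 0.318 in Tet3-/- mESC and 0.853 to 1.33 in XY mESC. It rose by 1.59, 0.87 and 1.95 in XX, XY and Tet3-/- cells (limma adjusted p = 0.0002, 0.0172 and 1.17e-05). Myc would not have met the filter without its EpiLC libraries, so these rises are not independent of the filter. It was lower in XX than in XY mESC by 0.94 (limma adjusted p = 0.0187), which did not pass on the deposited TPM, at -0.96. Mycn fell by 1.40 in XX and by 0.91 in Tet3-/- cells (adjusted p = 0.00472 and 0.037), neither of which passed on the deposited TPM. Skp2, the ligase subunit that targets p27 for degradation, was between 4.78 and 8.83 in all libraries and did not pass in any transition, at -0.05, 0.24 and -0.09 (adjusted p = 0.845, 0.26 and 0.667). On the deposited TPM the XY change was 0.85 and passed (limma adjusted p = 0.0414), where the median of all tested genes was 0.54 and 50.5% passed. Of the 4 genes for SCF turnover, 1 rose and 0 fell in XX, and 1 rose and 1 fell in each of the others. Among all tested genes 24.5% rose and 25.9% fell in XX, 26.4% and 25% in XY, and 25.2% and 27.2% in Tet3-/- cells. Cks1b, a cofactor of SKP2, was the gene that rose in XX and Tet3-/- cells, by 0.85 and 0.95 (adjusted p = 0.0197 and 0.00657), and Cul1, the scaffold of the ligase, rose in XY cells by 0.44 (adjusted p = 0.024). Fbxw7, which targets cyclin E, fell by 0.39 in XY and by 0.36 in Tet3-/- cells (adjusted p = 0.0239 and 0.0259). The rises of Cks1b and the falls of Fbxw7 did not pass on the deposited TPM, and the Fbxw7 change in XY cells was 0.22.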

How the data were processed

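The deposited table gives TPM (length-normalised transcript abundance) for each transcript in 19 mouse libraries. Per the submitters' processing notes, the authors used FastQC 0.11.7, Trimmomatic 0.35 and Salmon 1.1.0 with GRCm38. The annotation release and the strand setting are not given in the sources used here. Of 140948 transcript rows, 139357 matched the GENCODE M21 annotation with their version and 495 without it, and 1096 were unmatched. Matched rows were summed to 54119 genes and divided by median-of-ratios size factors from 13815 genes above 0 in all libraries. The 14972 genes that reached a TPM of 1 in 3 or more libraries were fitted as log2(scaled TPM + 1) with limma 3.58.1 in R 4.3.3 (6 groups, trended empirical Bayes, 13 residual degrees of freedom), with Benjamini-Hochberg adjustment within each of 9 contrasts and a threshold of 0.05. Transcripts (36314) were fitted in the same way, an alternative added after seeing the data. The code was tested on simulated data. TPM keeps no depth, so no counting error is given.

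All 10 members are named, and of each list the called genes with the highest or lowest change in a transition or group comparison could be named; not all of them are. Other genes named (Cdk2, Rb1, Trp53, Myc, Skp2, Cdkn2b) were chosen with their values known. The members, lists and tests were chosen with earlier results of these data known. Other scalings, pseudocounts, filters, fits and left-out libraries were tried as alternatives. Lists of genes for shared pluripotency, endoderm and fibroblasts were read as markers: they summed to 190 to 574, 0.433 to 10.8 and 0.613 to 6.44 scaled TPM.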

Additional observations from a re-analysis of the deposited data

Results flagged for a closer look

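Cdkn2a, Ccnd1 and Cdkn1a were singled out because their change from mESC to EpiLC differed between the XX line (LF2) and the XY line (E14) by a test of the difference itself (limma interaction contrast, Benjamini-Hochberg adjusted over 14972 genes). The log2 difference, XX minus XY, was 2.10 for Cdkn2a (adjusted p = 5.81e-05), 2.44 for Ccnd1 (adjusted p = 0.00209) and 1.80 for Cdkn1a (adjusted p = 0.000356). Sex and line cannot be told apart in these differences. Only Tet3-/- mESC, the group of 4 libraries, was large enough to look for a library far from the others by its gap (Dixon), and none of the 10 genes had one there.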

How the results depend on the processing

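Counts are of the 10 genes called by limma. The share of all genes was taken only for the main fit, the deposited TPM and the refit without both libraries that stand apart. Counts under the other settings have no such share beside them and are not read as results about the 10 genes. Leaving out 1 library at a time gave 4 to 6 in the XX transition, 5 to 6 in XY, 3 to 5 in Tet3-/-, 0 to 1 for Tet3-/- against XX in mESC and 0 to 1 in EpiLC, 3 to 6 for XX against XY in mESC and 2 to 3 in EpiLC, 0 to 0 for the difference of the Tet3-/- and XX transitions and 3 to 4 for that of XX and XY. For Tet3-/- against XX in EpiLC the count of 1 became 0 on the deposited TPM, rescaled over protein-coding genes, with a pseudocount of 0.1, with no filter, with TPM of at least 5 (which drops Ccnd2), with only the groups compared, and with an absolute log2 change of at least 1. That last rule gave 3 in the XX and 2 in the Tet3-/- transition, and 3 and 1 for XX against XY in mESC and EpiLC. XX against XY gave 3 in mESC on the deposited TPM, where 14.2% of all genes passed. It gave 3 in mESC and 8 in EpiLC with only the groups compared. The difference of the XX and XY transitions gave 1 on the deposited TPM, where 16% of all genes passed. With both libraries that stand apart left out (chosen after seeing the data), Tet3-/- against XX in mESC gave 3, the difference of the Tet3-/- and XX transitions 2 and that of XX and XY 5. Of all genes 17.9%, 6.02% and 37.5% passed there, in the same order. Cdkn1a in XX against XY EpiLC turned to -0.0571 on the deposited TPM. The cause of these shifts was not tested, apart from the dropped gene. Same-numbered samples did not deviate together in every pair (r from -0.444 to 0.477), and both ends of this range came from XX against Tet3-/- mESC. Between mESC and EpiLC of the same mutant, r was 0.216 (#1), 0.223 (#3) and -0.094 (#4). The numbers were not taken as pairing. The replicate block joined equal numbers across all genotypes, and a block of the mutants alone was not tried. With a replicate block the transitions had counts of 5 (XX), 6 (XY) and 5 (Tet3-/-), and the contrasts 0 and 0 for Tet3-/- against XX, 5 and 3 for XX against XY, and 0 and 3 for the differences.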

Other observations

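The genes whose scaled levels were most like each member's over the 19 libraries are given as a description, since the libraries share lines and states. Cntfr (r = 0.986) was nearest to Ccnd2, Il17rd (r = 0.985) to Cdk6 and Nubp1 (r = 0.974) to Ccnd3. Nudt19 (r = 0.965) was nearest to Cdk4, Kank3 (r = 0.963) to Cdkn2a and Psmd13 (r = 0.946) to Ccne1. Fth1 (r = 0.934) was nearest to Cdkn1a, Pitpnb (r = 0.931) to Ccne2, Tug1 (r = 0.926) to Ccnd1 and Arhgap12 (r = 0.871) to Cdkn1b.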
